A study of Zea mays with 18 samples.

Results

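The genotype by recovery interaction asks whether leaves of maize carrying a disrupted ZmNF-YA1 gene changed differently from wild-type leaves between the unheated state and recovery from heat. For each gene it is the R2h minus 0 h difference in nf-ya1 minus the R2h minus 0 h difference in W22, on log2(FPKM + 1), where FPKM is a read count divided by transcript length and library size. A gene was a member if 3 or more of the 12 libraries held 1 FPKM or more of it, which kept 21786 of the 36321 genes in the table. A positive interaction says that a gene gained more, or lost less, in nf-ya1 than in W22. The same number is the nf-ya1 minus W22 difference at R2h minus that difference at 0 h.

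The groups were nf-ya1 at R2h, nf-ya1 at 0 h, W22 at R2h and W22 at 0 h, with 3 libraries each of leaf lamina RNA. W22 is a maize inbred line, and nf-ya1 is 1 line in the W22 background that carries a Mutator transposon in ZmNF-YA1 (Zm00001eb005690). The 0 h plants were unheated, and the titles give R2h as 2 h of recovery after mild heat, whereas the protocol text gives 6 h of heat and 2 d of recovery. The length of the heat before R2h is stated only for the study's qRT-PCR samples, and the number of plants per RNA sample and the clock time of sampling are not given in the sources used here. Another 6 libraries, taken after 1 h of heat (3 nf-ya1, 3 W22), were not used to define the interaction.

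NF-Y is a trimeric transcription factor whose NF-YA subunit recognises the CCAAT element of promoters. Heat makes plant leaves produce heat shock proteins within minutes, and small heat shock proteins of the Hsp20 family bind unfolding proteins until other chaperones refold them. After the heat, these transcripts decline while growth and metabolic transcripts return.

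ZmNF-YA1 itself was detected in every library labelled nf-ya1. It had 8.97, 12.89 and 9.38 FPKM in nf-ya1 at R2h and 13.01, 12.6 and 21.15 FPKM in nf-ya1 at 0 h, against 11.35, 15.13 and 12.42 FPKM in W22 at R2h and 23.12, 22.79 and 26.55 FPKM in W22 at 0 h. At 1 h of heat it had 43.15, 36.09 and 27.03 FPKM in nf-ya1 and 49.63, 43.66 and 39.09 FPKM in W22. Its interaction was 0.34 (SE 0.28, adjusted p = 0.38), which did not pass the test. The study, by contrast, describes the mutant as lacking these transcripts, and its qRT-PCR gave far lower levels than in W22. FPKM of the whole gene cannot show where in the transcript the reads lay, so it does not check the genotype of a library, and nf-ya1 below stands for the libraries so labelled.

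The libraries of nf-ya1 varied more than those of W22. The SD between replicates, as a root mean square over genes on the log2 scale, was 0.37 in nf-ya1 at R2h and 0.52 in nf-ya1 at 0 h, against 0.24 in W22 at R2h and 0.27 in W22 at 0 h. Correlations between replicates were 0.944 to 0.978 in nf-ya1 at R2h and 0.914 to 0.938 in nf-ya1 at 0 h. The 12 libraries summed to 804977 to 922294 FPKM, and read depth per gene cannot be taken from the table. Fewer cells of a type and less RNA per cell cannot be told apart in such bulk samples. Chlorophyll a-b binding proteins, which mark green leaf cells, summed to 74980 to 90600 FPKM in nf-ya1 at R2h and 66040 to 69480 FPKM in nf-ya1 at 0 h, against 50160 to 57030 FPKM in W22 at R2h and 48010 to 53280 FPKM in W22 at 0 h. The genotypes did not overlap at either time, and the part of this in the results was not tested.

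More genes had a negative than a positive interaction. With calls made at adjusted p up to 0.01 and a log2 size from 1, 610 genes were called higher (2.8% of those tested) and 1969 lower (9.04%), so that 76.3% of the 2579 called genes were lower. The median over all tested genes was −0.28 (quartiles −0.75 and 0.20), with a median SE of 0.26. Scaling each library by its median ratio moved the median to 0.00 and the calls to 1073 higher and 1171 lower, or 47.8% higher in place of 23.7%. The excess of lower calls therefore depended on the scaling, whereas 606 of the 610 and 1170 of the 1969 genes were called in the same direction after it. Leaving out 1 library gave 372 to 737 higher and 1115 to 2018 lower calls. The higher calls numbered 398 or fewer without nf-ya1 R2h replicate 3 (372), W22 R2h replicate 2 (394) or 3 (379), or W22 0 h replicate 1 (398) or 2 (379), and the lower calls fell by more than 1.5 times without W22 R2h replicate 2 (1115) or 3 (1128) or W22 0 h replicate 2 (1261).

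More genes were called between the genotypes at 0 h than at R2h. At 0 h, 3175 genes were higher in nf-ya1 than in W22 (14.6%) and 1047 were lower (4.81%). At R2h, 1062 were higher (4.87%) and 627 lower (2.88%). Of the genes called at 0 h, 538 were also higher and 184 also lower at R2h, that is 16.9% of the 3175 and 50.7% of the 1062, and 17.6% of the 1047 and 29.3% of the 627. These 2 comparisons share no libraries. Their counts are given without median-ratio scaling only. The counts also rest on the same variance of a gene for all groups, while replicates varied most in nf-ya1 at 0 h. The median nf-ya1 minus W22 difference over all tested genes was 0.24 at 0 h and −0.03 at R2h. The median-ratio factors were 1.04 to 1.19 in nf-ya1 at 0 h and 0.87 to 0.93 in W22 at 0 h. The part of scaling in the excess of higher genes at 0 h was not tested.

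**Figure D1:**
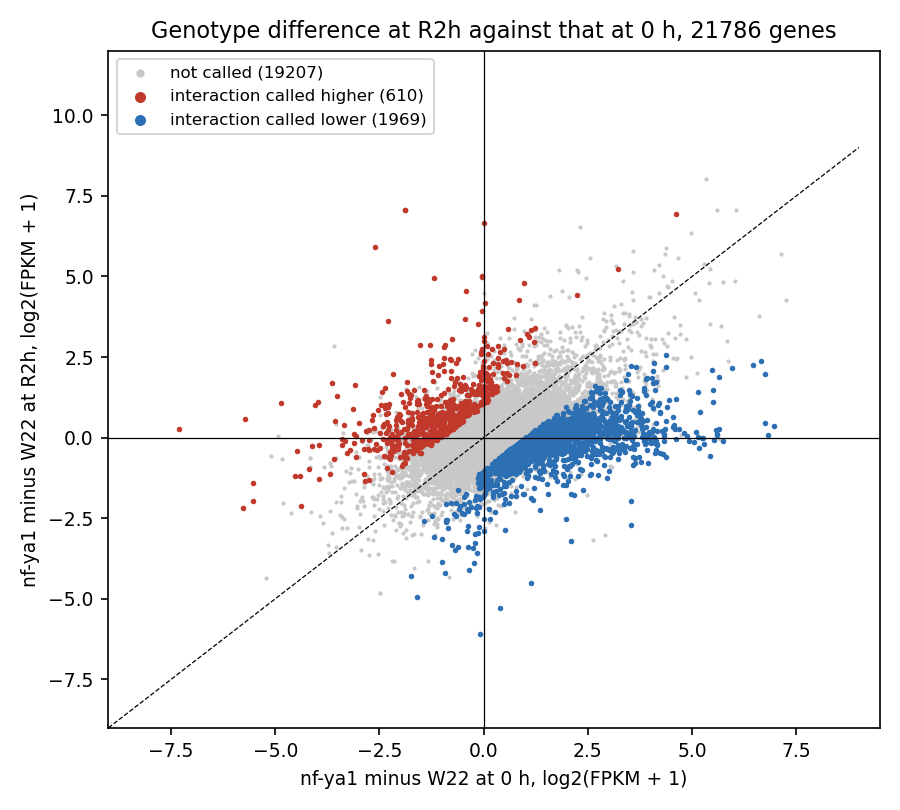
The nf-ya1 minus W22 difference at R2h (vertical axis) against that at 0 h (horizontal axis), each on log2(FPKM + 1), for 21786 genes, with the 610 genes whose interaction was called higher in red, the 1969 called lower in blue and the rest in grey. The dashed line marks equal differences, and most blue points lie right of 0 and near 0 on the vertical axis, where nf-ya1 exceeded W22 at 0 h and not at R2h.

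More genes were called between the times in nf-ya1 than in W22. Between R2h and 0 h, 1495 genes were higher (6.86%) and 2478 lower (11.4%) in nf-ya1, while in W22 859 were higher (3.94%) and 379 lower (1.74%). Among the 1969 genes with a lower interaction, 1267 changed in nf-ya1 and not in W22 by the call rule, 178 in W22 and not in nf-ya1, 34 in both in the same direction, 9 in both in opposite directions and 481 in neither. Among the 610 with a higher interaction the counts were 407, 55, 36, 9 and 103. These simple contrasts use the same libraries as the interaction and describe it. The counts over time are also given without median-ratio scaling only. The fit used the same variance of a gene for all groups, while replicates varied more in nf-ya1 than in W22. Its p-values may thus be too small for nf-ya1 and too large for W22, and the counts are not on an equal footing. The median R2h minus 0 h difference over all tested genes was −0.09 in nf-ya1 and 0.14 in W22.

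The largest class held genes that were high in nf-ya1 at 0 h and close to W22 at R2h. In 1227 of the 1969 genes with a lower interaction (62.3%) the genotypes differed by the call rule at 0 h only, with nf-ya1 higher in each. The median nf-ya1 minus W22 difference of this class was 1.84 at 0 h and 0.03 at R2h. For 142 other genes the genotypes differed at R2h only, with nf-ya1 lower, 60 differed at both times in 1 direction, 16 in opposite directions and 524 at neither time. Among the 610 genes with a higher interaction, 285 were lower in nf-ya1 at 0 h only (median −1.68 at 0 h and 0.14 at R2h), 153 were higher in nf-ya1 at R2h only (median −0.05 at 0 h and 1.74 at R2h), 13 differed at both times in 1 direction, 26 in opposite directions and 133 at neither.

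The libraries at 1 h of heat, fitted alone, served as samples outside the rule. Of all tested genes, 6.13% were higher and 6.02% lower in nf-ya1 than in W22 at 1 h. Of the 1227 genes that had been higher in nf-ya1 at 0 h only, 184 (15.0%) were higher in nf-ya1 at 1 h and 11 were lower. Of the 285 genes lower in nf-ya1 at 0 h only, 72 (25.3%) were lower at 1 h and 11 higher. Of the 153 genes higher in nf-ya1 at R2h only, 43 (28.1%) were higher at 1 h, and of the 142 lower at R2h only, 30 (21.1%) were lower. The nf-ya1 libraries at 1 h differed among themselves, and the count of 184 became 69 without nf-ya1 replicate 2 (5.62%, against 2.12% of all genes), 326 without nf-ya1 replicate 3 (26.6%, against 9.42%), and 102, 79 and 83 without W22 replicates 1, 2 and 3. The other counts moved as well. Without nf-ya1 replicate 2 and W22 replicates 2 and 3, each left out in turn, the 72 became 36, 37 and 46, the 43 became 20, 23 and 25, and the 30 became 6, 12 and 16. Without W22 replicate 1 the 43 became 28. In each of these fits the share of a class was above that of all tested genes in the same direction.

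**Figure D2:**
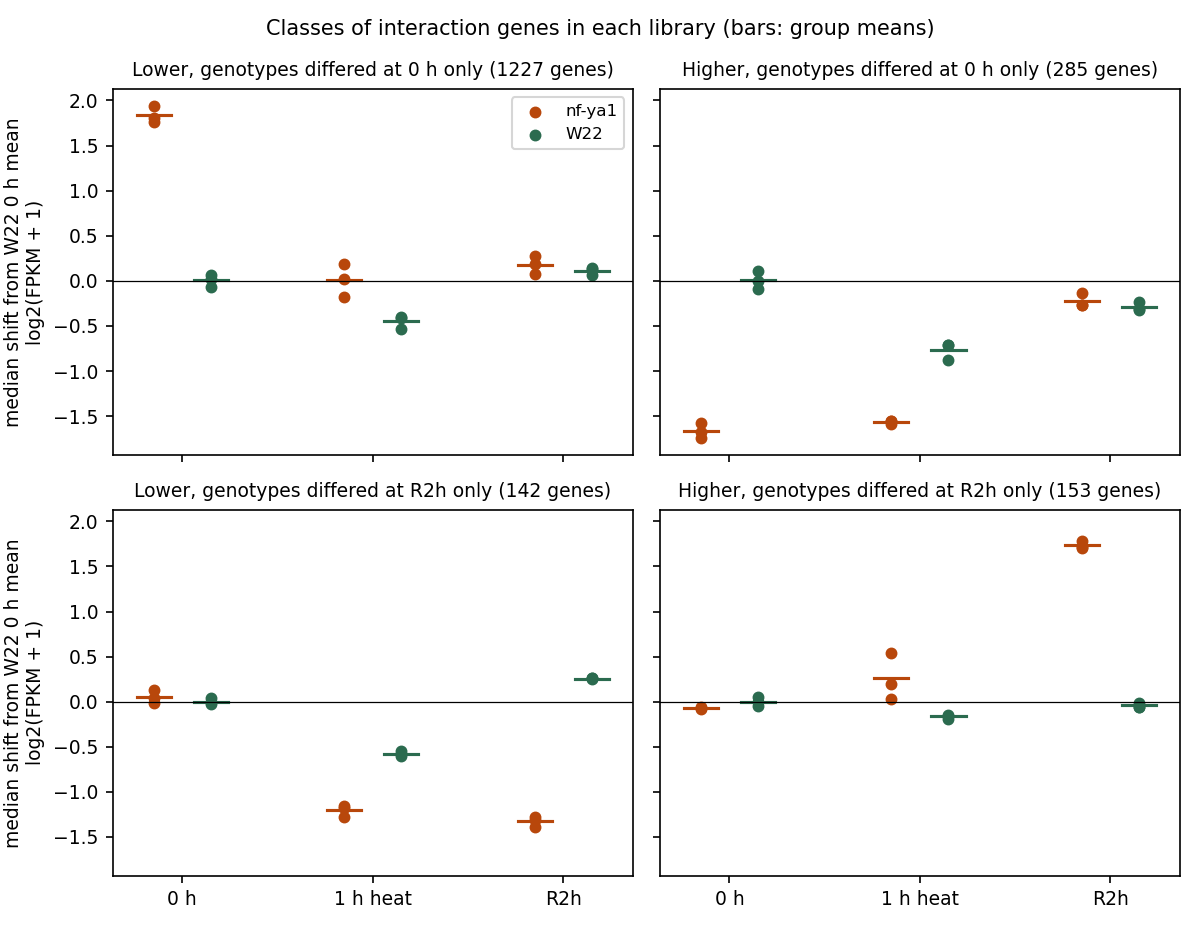
Median shift of each library from the W22 0 h mean, on log2(FPKM + 1), over the genes of 4 classes, with nf-ya1 libraries in orange and W22 libraries in green at 0 h, after 1 h of heat and at R2h, points for libraries and bars for group means. For the 1227 genes of the upper left panel the nf-ya1 libraries at 0 h sat between 1.76 and 1.94 and at R2h between 0.07 and 0.28, while W22 libraries at R2h sat between 0.06 and 0.15.

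The annotation text used here covers only part of the gene set: 1712 tested genes carry a domain name, all of them genes that the study had selected on these samples. Of those, 88 were called higher (5.14%) and 263 lower (15.4%), which is the fitting background for the counts below. A list chosen on these samples is not independent evidence of a direction. By limma at an unadjusted p under 0.05, 9694 of all 21786 tested genes passed. Over all tested genes, 14341 interactions lay below 0 and 7445 above. The list counts at that unadjusted level are to be read beside this high background. The 9694 genes were not split by direction or limited to annotated genes. Whether a list exceeded this background in either direction was thus not tested.

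Small heat shock proteins were called in both directions. Of 41 tested genes with an alpha crystallin/Hsp20 domain, 14 were called higher, 8 lower and 19 in neither direction. The share called higher was 34.1%, against 5.14% of annotated genes. The share called lower was 19.5%, closer to the 15.4% of annotated genes. The list median was 1.87, against −0.35 for annotated genes and −0.28 for all tested genes. The 14 called higher had 16.7 to 5928 FPKM (median 396) in the highest of their 4 group means, whereas the 8 called lower had 1.36 to 17.2 FPKM (median 6.54). In all 8 genes called lower, nf-ya1 was above W22 at 0 h only. Median-ratio scaling gave 16 higher and 6 lower calls.

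**Figure D3:**
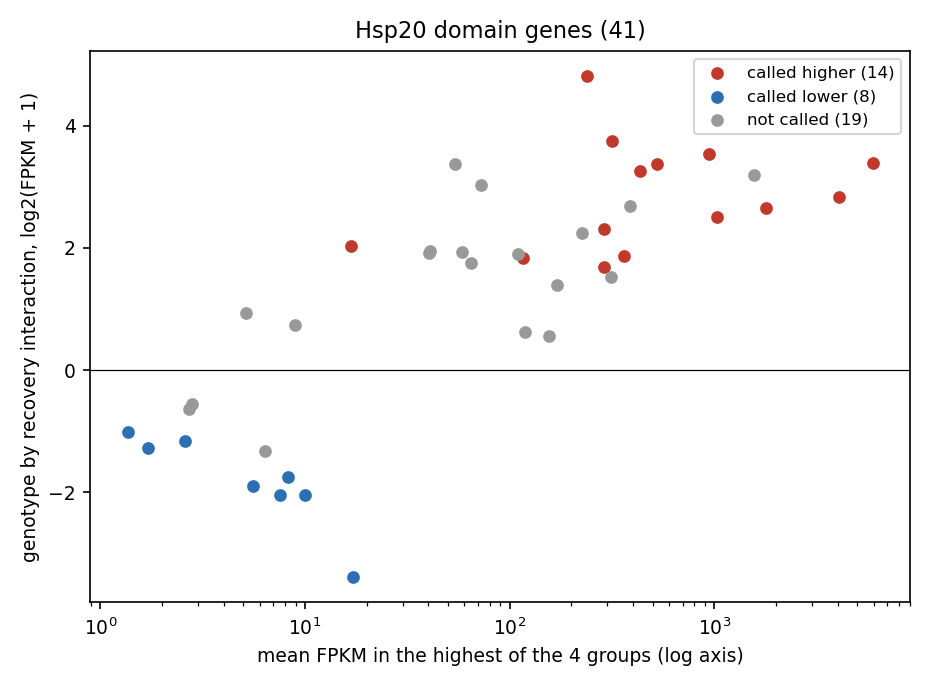
Genotype by recovery interaction on log2(FPKM + 1) of the 41 tested Hsp20 domain genes (vertical axis) against the mean FPKM in the highest of the 4 groups (horizontal log axis), with 14 genes called higher in red, 8 called lower in blue and 19 not called in grey. Every gene called lower lies at or under 17.2 FPKM and every gene called higher at or above 16.7 FPKM.

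Summed over the 41 genes, Hsp20 transcripts amounted to 14770 to 24540 FPKM in nf-ya1 at R2h and 1029 to 2307 FPKM in nf-ya1 at 0 h, against 6581 to 11430 FPKM in W22 at R2h and 4653 to 5238 FPKM in W22 at 0 h. The sums of nf-ya1 were above those of W22 at R2h and below them at 0 h, with no overlap between the genotypes at either time. After 1 h of heat they were 154700 to 165000 FPKM in nf-ya1 and 143200 to 155700 FPKM in W22, where the ranges overlapped.

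Zm00001eb397940 had the largest interaction of the Hsp20 genes. It had 240.02, 244.69 and 230.58 FPKM in nf-ya1 at R2h and 3.41, 0.37 and 2.51 FPKM in nf-ya1 at 0 h, against 81.63, 103.49 and 104.1 FPKM in W22 at R2h and 31.44, 31.1 and 29.19 FPKM in W22 at 0 h. All 3 nf-ya1 libraries were above W22 at R2h and below W22 at 0 h. The interaction was 4.82 (SE 0.47, adjusted p = 8.8e-05). After 1 h of heat the gene had 11058.04, 10129.37 and 10245.41 FPKM in nf-ya1 and 9926.16, 8857.24 and 8978.94 FPKM in W22.

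Zm00001eb034050, also an Hsp20 gene, crossed over. Its FPKM was 1138.99, 770.25 and 903.3 in nf-ya1 at R2h and 86.19, 59.48 and 116.01 in nf-ya1 at 0 h, against 132.71, 242.33 and 213.99 in W22 at R2h and 203.25, 209.62 and 193.37 in W22 at 0 h. The W22 libraries overlapped between the times, and nf-ya1 lay below them at 0 h and above them at R2h. The interaction was 3.53 (SE 0.37, adjusted p = 0.00014) and passed the test in each alternative run, including the treat test against a log2 of 1.

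Zm00001eb011930, a further Hsp20 gene, rested on less even libraries. It had 514.8, 152.12 and 282.2 FPKM in nf-ya1 at R2h and 20.69, 3.12 and 18.82 FPKM in nf-ya1 at 0 h, against 176.08, 238.77 and 230.43 FPKM in W22 at R2h and 117.49, 119.17 and 133.18 FPKM in W22 at 0 h. The genotypes overlapped at R2h and not at 0 h. Its interaction of 3.75 (SE 0.81, adjusted p = 0.0066) lost the call without nf-ya1 R2h replicate 1 or 3 or any 1 W22 library, with no filter on low values and in the treat test.

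Of the scarce Hsp20 genes, Zm00001eb026690 had the most negative interaction. It had 1.11, 0.17 and 0.17 FPKM in nf-ya1 at R2h and 16.44, 4.42 and 30.59 FPKM in nf-ya1 at 0 h, against 0.17, 0.39 and 0.1 FPKM in W22 at R2h and 0.34, 0.19 and 0 FPKM in W22 at 0 h. Of these groups only nf-ya1 at 0 h exceeded 1.11 FPKM. The interaction was −3.39 (SE 0.72, adjusted p = 0.0059) and the call was lost in 12 of 25 alternatives.

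The chaperonin list of 30 genes (median −0.69) held 27 of the Cpn60/TCP-1 family, which enclose folding proteins, and 3 of the chaperonin-like RbcX type, which assist the assembly of Rubisco. Of the 27, 0 were called higher and 4 lower by limma, and 1 was higher and 15 were lower at an unadjusted p under 0.05 (median −0.73). These 4 made up 13.3% of the list, a share near the 15.4% of annotated genes. The 3 RbcX genes had interactions of 0.73 to 1.45, with 0 limma calls and 2 higher and 0 lower at an unadjusted p under 0.05. The largest called, Zm00001eb286730, had 53.65, 58.31 and 63.85 FPKM in nf-ya1 at R2h and 98.04, 85.01 and 109.72 FPKM in nf-ya1 at 0 h, against 71.75, 89.84 and 77.71 FPKM in W22 at R2h and 36.65, 31.58 and 38.92 FPKM in W22 at 0 h. The 2 genotypes thus went in opposite directions over time, and the interaction was −1.86 (SE 0.18, adjusted p = 0.0001). Zm00001eb268910, of the same family, had an interaction of −1.73 (adjusted p = 0.002).

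Of the 10 HSP100/Clp proteins, a list of unfoldases and protease subunits, 2 were called higher and 1 lower (median 0.18). The 3 with a ClpA/ClpB lid domain had 2 higher and 0 lower by limma (median 1.59). The 5 annotated as proteolytic subunits had 0 higher and 1 lower (median −0.61). At an unadjusted p under 0.05 the counts were 2 and 0, and 0 and 2. Zm00001eb157760, with a ClpA/ClpB lid domain, had 3.6, 3.47 and 4.29 FPKM in nf-ya1 at R2h and 0.29, 0 and 0 FPKM in nf-ya1 at 0 h, against 0.15, 0 and 0 FPKM in W22 at R2h, and was listed at 0 in W22 at 0 h. Only nf-ya1 at R2h held more than 1 FPKM of it, and the adjusted p of the interaction was 0.00017. The call was lost with a pseudocount of 0.01 and in the treat test. Zm00001eb393250, with the same domain, had 80.97, 159.6 and 136.23 FPKM in nf-ya1 at R2h and 17.52, 12.56 and 23.91 FPKM in nf-ya1 at 0 h, against 61.2, 63.98 and 64.05 FPKM in W22 at R2h and 30.14, 23.33 and 32.08 FPKM in W22 at 0 h. Its interaction was 1.59 (SE 0.37, adjusted p = 0.0088), and the call was lost in 15 of 26 alternatives, among them the replicate block and leaving out any 1 library other than nf-ya1 R2h replicate 1 and nf-ya1 0 h replicate 3.

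The co-chaperone list of 21 genes (median −0.26) held 8 BAG and 10 DnaJ proteins, which work with HSP70, and 3 activators of the HSP90 ATPase. Of the 8 BAG genes 1 was called higher and 2 lower, and of the 10 DnaJ genes 0 and 1 by limma, with 2 and 1 at an unadjusted p under 0.05. The 3 HSP90 activators had 0 limma calls, with 2 higher and 0 lower at an unadjusted p under 0.05. The BAG gene Zm00001eb364900 had 4.4, 107.12 and 71.03 FPKM in nf-ya1 at R2h and 0.1, 0 and 0 FPKM in nf-ya1 at 0 h, against 0.17, 0 and 0.17 FPKM in W22 at R2h and 0, 0.08 and 0.08 FPKM in W22 at 0 h. Replicate 1 of nf-ya1 at R2h was far below the other replicates, and the interaction of 5.00 (SE 1.18, adjusted p = 0.0097) lost the call in 19 of 23 alternatives. Another BAG gene, Zm00001eb198560, was high in nf-ya1 at 0 h. It had 6.39, 4.86 and 6.01 FPKM in nf-ya1 at R2h and 30.22, 34.93 and 67.51 FPKM in nf-ya1 at 0 h, against 1.18, 1.59 and 1.5 FPKM in W22 at R2h and 2.59, 3.38 and 2.51 FPKM in W22 at 0 h. Its interaction was −2.01 (SE 0.35, adjusted p = 0.0024). The DnaJ gene Zm00001eb218560 had an interaction of −1.46 (adjusted p = 0.00088). The annotation held no HSP70, HSP90, heat shock factor or NF-Y subunit, so these were not analysed here.

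**Figure D4:**
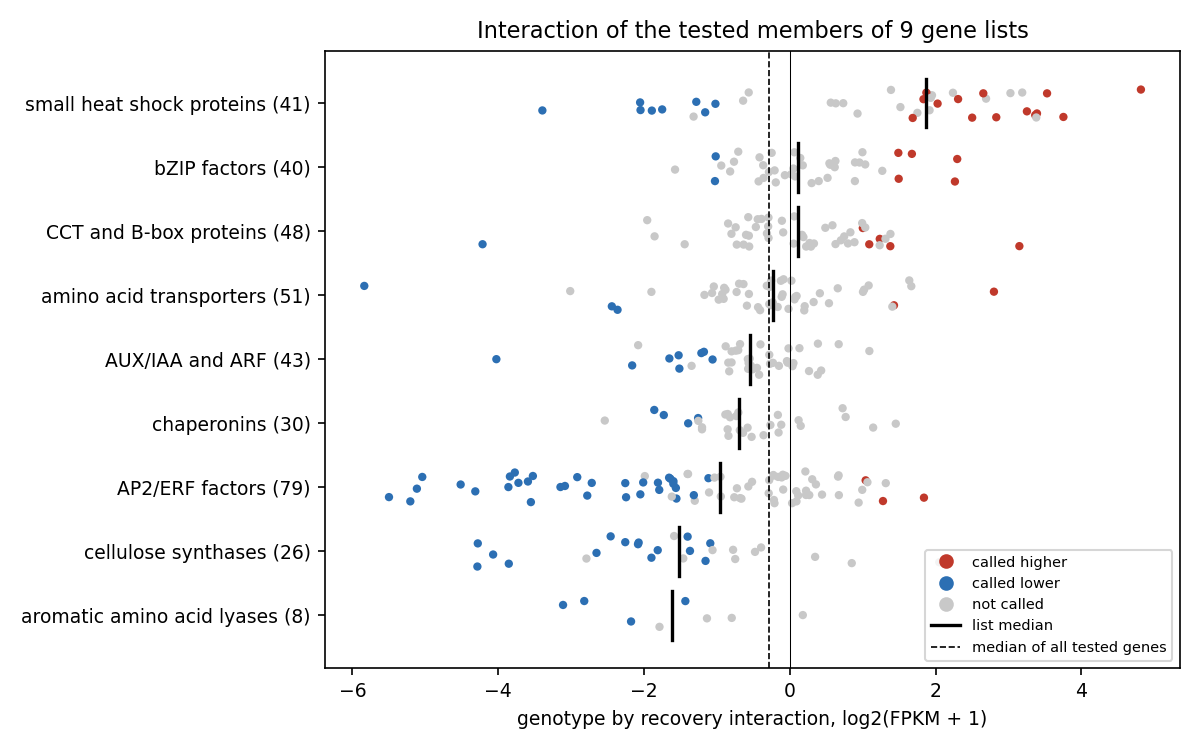
Genotype by recovery interaction on log2(FPKM + 1) of the tested members of 9 gene lists, with the number of members beside each name, genes called higher in red, called lower in blue and not called in grey, black bars at list medians and a dashed line at the median of all genes (−0.28). Small heat shock proteins lie to the right (median 1.87), and AP2/ERF factors (−0.95), cellulose synthases (−1.52) and aromatic amino acid lyases (−1.61) to the left.

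AP2/ERF proteins are a large family of plant transcription factors that includes regulators of ethylene, cold and drought responses. Of 79 tested, 32 were called lower (40.5%) and 3 higher, with a list median of −0.95. In all 32 the genotypes differed at 0 h only, with nf-ya1 above W22. Median-ratio scaling left 25 lower and 8 higher calls. Summed over the 79 genes, the level was 1092 to 1110 FPKM in nf-ya1 at R2h and 1731 to 2207 FPKM in nf-ya1 at 0 h, against 1043 to 1322 FPKM in W22 at R2h and 835 to 967 FPKM in W22 at 0 h.

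The AP2/ERF gene Zm00001eb413930 showed the pattern of the class. It had 0.1, 0.49 and 0.1 FPKM in nf-ya1 at R2h and 72.99, 111.19 and 46.63 FPKM in nf-ya1 at 0 h, against 0.1, 0.1 and 0.2 FPKM in W22 at R2h and 0.39, 0.68 and 0.48 FPKM in W22 at 0 h. Only unheated nf-ya1 leaves held more than 1 FPKM in these groups, and at 1 h of heat nf-ya1 had 0.89, 0.88 and 0.88 FPKM against 0.1, 0 and 0.1 FPKM in W22. The interaction was −5.50 (SE 0.37, adjusted p = 1.3e-05).

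Other AP2/ERF genes had the same course. Zm00001eb318900 had 0.42, 0.42 and 0.28 FPKM in nf-ya1 at R2h and 46.47, 69.61 and 15.22 FPKM in nf-ya1 at 0 h, against at most 0.92 FPKM in any W22 library at these times, and an interaction of −5.20 (SE 0.61, adjusted p = 0.00025). Zm00001eb318910 had 0.17, 0.06 and 0.06 FPKM in nf-ya1 at R2h and 40.25, 58.46 and 17.86 FPKM in nf-ya1 at 0 h, against at most 0.34 FPKM in W22, and an interaction of −5.04 (SE 0.46, adjusted p = 6.1e-05). Replicate 3 was the lowest of the 3 unheated nf-ya1 libraries in each of these genes. Zm00001eb038070 had 40.96, 110.81 and 17.52 FPKM in nf-ya1 at 0 h, at most 0.06 FPKM in nf-ya1 at R2h and at most 0.59 FPKM in W22 at 0 h, and was listed at 0 in W22 at R2h (adjusted p of the interaction 0.00057).

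Cell wall and phenylpropanoid lists also had mostly lower calls. Cellulose synthase and related proteins, which build the glucan chains of the wall, had 15 of 26 genes called lower (57.7%) and 0 higher by limma, with a median of −1.52. At an unadjusted p under 0.05, 19 were lower and 1 was higher. In 8 of the 15 nf-ya1 was above W22 at 0 h only, and in the other 7 at both times. Median-ratio scaling left 10 lower and 0 higher calls. The summed level was 453 to 549 FPKM in nf-ya1 at R2h and 1319 to 2211 FPKM in nf-ya1 at 0 h, against 381 to 443 FPKM in W22 at R2h and 479 to 491 FPKM in W22 at 0 h. All 3 unheated nf-ya1 libraries thus lay above the other 9 libraries.

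Zm00001eb379070, a cellulose synthase gene, had 3.42, 2.46 and 2.56 FPKM in nf-ya1 at R2h and 113.85, 143.62 and 55.2 FPKM in nf-ya1 at 0 h, against 1.64, 1.76 and 1.6 FPKM in W22 at R2h and 3.76, 3.92 and 3.59 FPKM in W22 at 0 h. The interaction was −3.85 (SE 0.39, adjusted p = 0.0001). Zm00001eb046440 had 0.27, 0.57 and 0.35 FPKM in nf-ya1 at R2h and 22.55, 10.41 and 99.26 FPKM in nf-ya1 at 0 h, against at most 0.61 FPKM in W22, and its interaction was −4.28 (SE 0.81, adjusted p = 0.0035), with the call lost in 5 of 23 alternatives (without nf-ya1 R2h replicate 3, W22 R2h replicate 2 or 3 or W22 0 h replicate 2, and in the treat test). Zm00001eb153340 with −4.28 (SE 0.76) and Zm00001eb099710 with −4.07 (SE 0.65) also had their highest level in replicate 3 of nf-ya1 at 0 h, at 86.25 and 70.31 FPKM. Replicate 3 was thus the highest unheated nf-ya1 library for these 3 genes and the lowest for Zm00001eb379070.

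Aromatic amino acid lyases, the entry step of phenylpropanoid synthesis, had 4 of 8 genes called lower and 0 higher by limma (median −1.61), and 7 lower and 0 higher at an unadjusted p under 0.05. Zm00001eb247650 had 1.72, 1.13 and 1.15 FPKM in nf-ya1 at R2h and 58.78, 79.84 and 53.95 FPKM in nf-ya1 at 0 h, against 1.6, 2.52 and 2.23 FPKM in W22 at R2h and 12.79, 14.25 and 3.66 FPKM in W22 at 0 h. Both genotypes were lower at R2h, nf-ya1 more so, and the interaction was −3.11 (SE 0.53, adjusted p = 0.002). Zm00001eb077230 had an interaction of −2.82 (SE 0.55, adjusted p = 0.004) and lost the call without nf-ya1 R2h replicate 3, W22 R2h replicate 2 or 3 or W22 0 h replicate 2 or 3, and in the treat test. Downstream, 2 of 8 chalcone synthases and isomerases, the first enzymes of flavonoid synthesis, were called lower and 0 higher by limma, with 4 and 0 at an unadjusted p under 0.05. Zm00001eb198030, a chalcone synthase, had 59.16, 70.4 and 62.79 FPKM in nf-ya1 at R2h and 250.32, 355.11 and 394.26 FPKM in nf-ya1 at 0 h, against 67.91, 38.98 and 49.15 FPKM in W22 at R2h and 89.5, 95.09 and 97.94 FPKM in W22 at 0 h. Its interaction was −1.46 (adjusted p = 0.0042), and that of the chalcone isomerase Zm00001eb373710 was −1.33 (adjusted p = 0.0079). The call of Zm00001eb198030 was lost in 7 of 26 alternatives and that of Zm00001eb373710 in 16, with median-ratio scaling and the replicate block in both. Of the libraries left out, nf-ya1 R2h replicate 3, W22 R2h replicate 3 and W22 0 h replicates 1 and 2 ended the call of Zm00001eb198030, and any 1 but nf-ya1 0 h replicate 3 that of Zm00001eb373710.

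Auxin signalling genes were called lower at a share near that of all annotated genes. AUX/IAA proteins repress the auxin response factors, and of 43 genes of both kinds 8 were called lower (18.6%, against 15.4% of annotated genes) and 0 higher by limma (median −0.55). At an unadjusted p under 0.05 these were 20 and 2, while median-ratio scaling gave 5 lower and 2 higher calls. Zm00001eb301590, an AUX/IAA gene, had 1.28, 3.93 and 2.79 FPKM in nf-ya1 at R2h and 67.11, 102.79 and 47.48 FPKM in nf-ya1 at 0 h, against 5.21, 6.39 and 6.78 FPKM in W22 at R2h and 8.6, 7.76 and 6.93 FPKM in W22 at 0 h. The interaction was −4.02 (SE 0.42, adjusted p = 0.00013). Of the response factors, Zm00001eb224680 had −2.16 (adjusted p = 0.0015) and Zm00001eb066640 had −1.65 (adjusted p = 0.0015).

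Factors with a CCT domain or B-box, the families of CONSTANS and the clock protein TOC1, had 5 of 48 genes called higher and 1 lower (median 0.12). The 7 genes annotated with the CO/COL/TOC1 conserved site had 0 higher and 1 lower by limma (median −0.85). At an unadjusted p under 0.05 they had 0 and 6. The 26 annotated with a CCT domain had 3 and 0 limma calls (median 0.12), and 9 and 3 at that level. The 15 annotated with a B-box had 2 and 0 (median 0.59), and 7 and 1. Zm00001eb170920 had 11.32, 9.98 and 8.38 FPKM in nf-ya1 at R2h and 6.75, 4.36 and 2.84 FPKM in nf-ya1 at 0 h, against 12.31, 11.29 and 11.82 FPKM in W22 at R2h and 58.01, 55.24 and 54.55 FPKM in W22 at 0 h. At R2h against 0 h, nf-ya1 was higher by 1.00 on log2(FPKM + 1), just short of the call rule, and the W22 difference was −2.15, with no overlap between times in either genotype. The interaction was 3.15 (SE 0.29, adjusted p = 7.3e-05). The 1 gene called lower, Zm00001eb048780, had 16.49, 45.86 and 17.1 FPKM in nf-ya1 at 0 h and 0.51 FPKM or less in the other 9 libraries, with an interaction of −4.21 (adjusted p = 0.00019).

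Of 40 bZIP factors, a family that includes mediators of abscisic acid responses, 5 were called higher and 2 lower (median 0.11). Median-ratio scaling gave 10 higher and 0 lower. Zm00001eb389660 had 516.72, 389.86 and 517.97 FPKM in nf-ya1 at R2h and 95.7, 161.07 and 119.56 FPKM in nf-ya1 at 0 h, against 310.71, 322 and 300.46 FPKM in W22 at R2h and 235.24, 223.43 and 229.41 FPKM in W22 at 0 h. The interaction was 1.49 (SE 0.25, adjusted p = 0.0017). Zm00001eb031210 had 100.77, 67.17 and 89.99 FPKM in nf-ya1 at R2h and 0.88, 1.58 and 1.13 FPKM in nf-ya1 at 0 h, against 16.83, 16.28 and 14.87 FPKM in W22 at R2h and 0.41, 0.48 and 0.25 FPKM in W22 at 0 h. Its interaction of 1.68 (adjusted p = 0.00074) lost the call with a pseudocount of 0.1 or 0.01 and in the treat test. Zm00001eb189840 had an interaction of 2.30 (adjusted p = 0.0013) at low levels, with 0.92, 1 and 0 FPKM in nf-ya1 at 0 h and at most 6.8 FPKM in any library. It also lost the call with a pseudocount of 0.1 or 0.01 and in the treat test.

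Among amino acid transporters 2 of 51 genes were called higher and 3 lower (median −0.23). Zm00001eb161250 had 0, 0.05 and 0.05 FPKM in nf-ya1 at R2h and 52.92, 75.48 and 46.48 FPKM in nf-ya1 at 0 h, against 0.05, 0.23 and 0.05 FPKM in W22 at R2h and 0.14, 0.09 and 0.04 FPKM in W22 at 0 h. It was on in unheated nf-ya1 leaves alone among these groups, with an interaction of −5.84 (SE 0.24, adjusted p = 1.1e-06). Zm00001eb264210 went the other way with 2.80 (adjusted p = 0.00043), and Zm00001eb349050 had −2.44 (adjusted p = 0.00072).

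Of the alternative oxidases and catalases, which limit reactive oxygen, 2 of 7 were called higher and 0 lower by limma, with 3 and 0 at an unadjusted p under 0.05. The alternative oxidase Zm00001eb071870 had 15.39, 12.55 and 12.07 FPKM in nf-ya1 at R2h and 4.13, 6.75 and 4.71 FPKM in nf-ya1 at 0 h, against 1.91, 1.94 and 1.87 FPKM in W22 at R2h and 3.52, 2.92 and 1.42 FPKM in W22 at 0 h. Its interaction was 1.49 (SE 0.32, adjusted p = 0.0063), and the call was lost in 15 of 26 alternatives. The calreticulins and calnexins, which fold proteins in the endoplasmic reticulum (5 genes), carbonic anhydrases (3) and ABA/WDS and AWPM-19-like proteins (8) had 0 limma calls. At an unadjusted p under 0.05 they had 1 higher and 1 lower, 0 and 2, and 2 and 3. Histone H4 type proteins had 1 of 8 genes called lower and aldehyde dehydrogenases 1 of 16, with 0 higher by limma in both and 0 and 1 higher at an unadjusted p under 0.05.

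**Figure D5:**
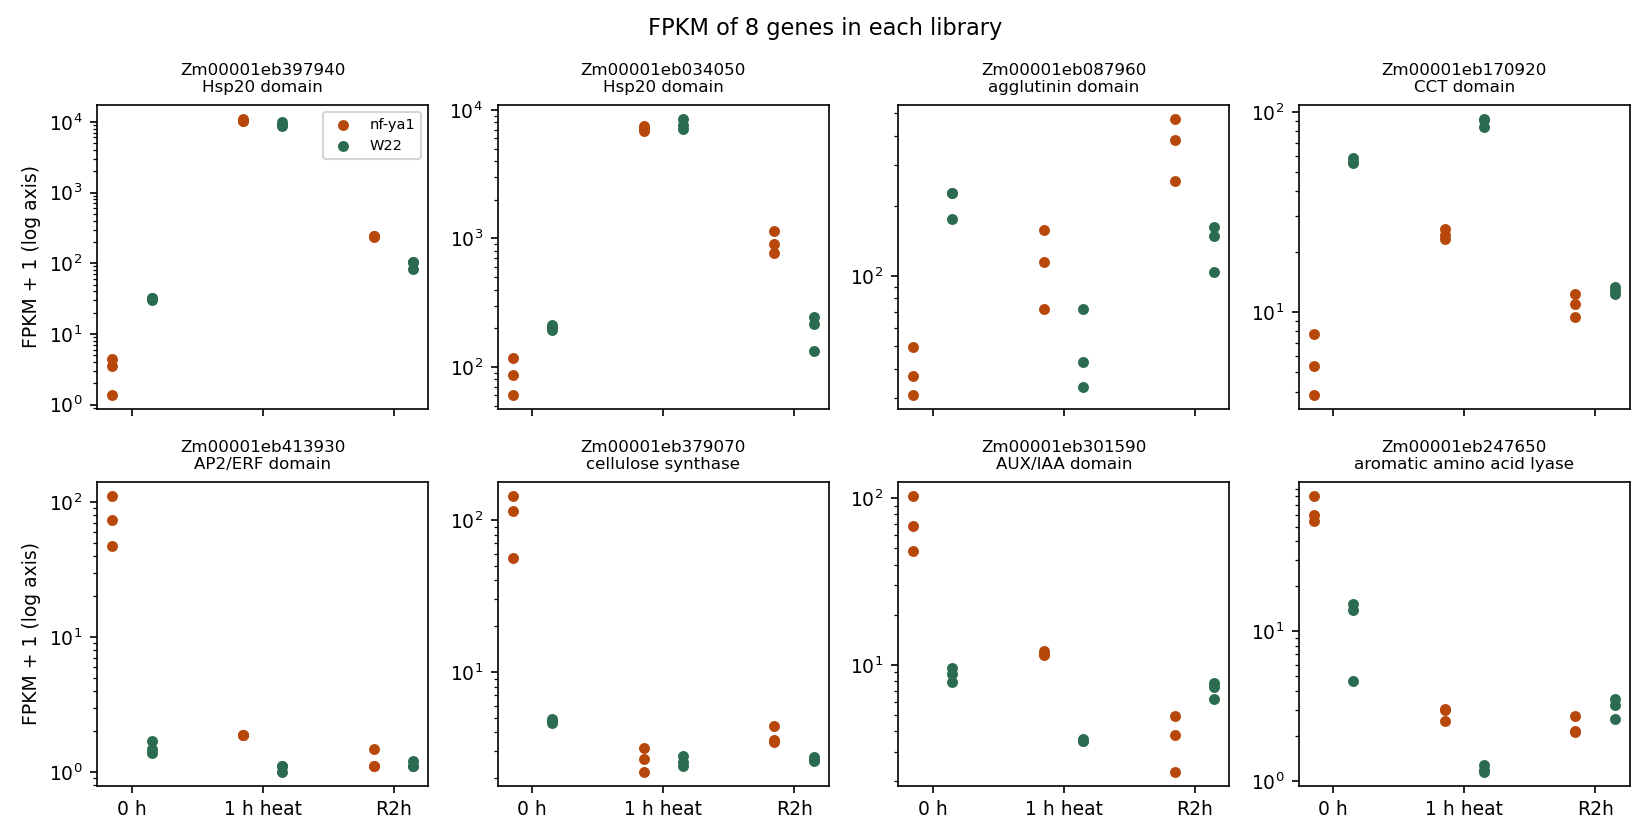
FPKM plus 1 on a log axis for 8 genes in each library at 0 h, after 1 h of heat and at R2h, with nf-ya1 in orange and W22 in green. The Hsp20 gene Zm00001eb397940 stood at 0.37 to 3.41 FPKM in unheated nf-ya1 and above W22 at R2h, and the 4 genes of the lower row were highest in unheated nf-ya1, such as Zm00001eb413930 with 46.63 to 111.19 FPKM.

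Chlorophyll a-b binding proteins, the antenna of the photosystems, had 1 of 21 genes called higher and 2 lower (median 0.45). The 2 called lower were nearly absent from W22. Zm00001eb161410 had 4103.81, 1890.95 and 2661.56 FPKM in nf-ya1 at R2h and 4312.27, 5309.02 and 3042.65 FPKM in nf-ya1 at 0 h, against 20.44, 28.57 and 29.56 FPKM in W22 at R2h and 0, 0 and 3.56 FPKM in W22 at 0 h. The nf-ya1 libraries overlapped between the times and lay far above W22 at both, whereas the W22 libraries did not overlap between the times. The interaction was −4.60 (SE 0.73, adjusted p = 0.0015). Its call was lost in 3 of 26 alternatives (a pseudocount of 0.01, the fit of all 18 libraries and the treat test). At 1 h of heat the gene had 1856.48, 787.91 and 0 FPKM in nf-ya1 and was listed at 0 in W22. Zm00001eb161390 had 1090.09, 607.35 and 769.4 FPKM in nf-ya1 at R2h and 816.75, 1119.7 and 601.87 FPKM in nf-ya1 at 0 h, against 2.74, 2.34 and 2.51 FPKM in W22 at R2h and 0, 0.26 and 0 FPKM in W22 at 0 h, with an interaction of −1.74 (adjusted p = 0.0039). Its call was lost in 9 of 26 alternatives, among them median-ratio scaling, the fit of all 18 libraries, and leaving out nf-ya1 R2h replicate 3, any 1 W22 R2h library or W22 0 h replicate 1 or 3. The 1 called higher, Zm00001eb432850, had 3.7, 1.38 and 3.81 FPKM in nf-ya1 at R2h and was listed at 0 in the other 9 libraries (adjusted p = 0.0025). Its call was lost with a pseudocount of 0.01 and in the treat test.

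Some genes were all-or-none between groups. In nf-ya1, 7 genes had at least 5 FPKM in all 3 R2h libraries and were listed at 0 in all 3 libraries at 0 h, and 13 genes had the reverse pattern. In W22 the counts were 2 and 1. Between genotypes, 32 genes at 0 h and 44 at R2h reached 5 FPKM in all nf-ya1 libraries and were listed at 0 in all W22 libraries, and 3 and 13 genes had the reverse. Of tested genes, 86 were above 0 in all 9 nf-ya1 libraries of the series and at 0 in all 9 W22 libraries, of which 1 was called higher and 1 lower in the interaction. Reads were aligned to the B73 genome, and the part of sequence differences between the lines in these values was not tested. Whether the nf-ya1 plants of the different times were genetically uniform was not tested either, which limits what the R2h minus 0 h difference in nf-ya1 measures.

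Among single genes without annotation, those lower in nf-ya1 at 0 h only included Zm00001eb381070. It had 10.84, 146.85 and 67.68 FPKM in nf-ya1 at R2h and was listed at 0 in nf-ya1 at 0 h, against 13.42, 78.88 and 60.55 FPKM in W22 at R2h and 167.29, 161.06 and 142.92 FPKM in W22 at 0 h. It was also listed at 0 in all 3 nf-ya1 libraries at 1 h of heat, where W22 had 181.13, 123.71 and 97.93 FPKM. The adjusted p of its interaction was 0.0011.

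Others of that class had high values in W22 at 0 h. Zm00001eb272090 had 8.19, 0.65 and 4.84 FPKM in nf-ya1 at R2h and 2.22, 1.26 and 0.49 FPKM in nf-ya1 at 0 h, against 1.14, 2.09 and 2.95 FPKM in W22 at R2h and 185.83, 211.74 and 38.53 FPKM in W22 at 0 h, with an interaction of 6.30 (SE 1.00, adjusted p = 0.0014). Zm00001eb419390 had 69.44, 67.16 and 62.74 FPKM in nf-ya1 at R2h and 5.99, 4.55 and 11.24 FPKM in nf-ya1 at 0 h, against 27.35, 30.78 and 34.24 FPKM in W22 at R2h and 339.95, 405.19 and 83.12 FPKM in W22 at 0 h, with an interaction of 5.95 (SE 0.69, adjusted p = 0.00025). The R2h minus 0 h difference of Zm00001eb419390 was 3.11 in nf-ya1 and −2.84 in W22, and its genotypes did not overlap at R2h. That of Zm00001eb272090 was 1.01 in nf-ya1, which was not called, and −5.29 in W22. W22 0 h replicate 3 was the lowest of its group in both genes.

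The same replicate was low for 2 genes of pathogenesis-related families. Zm00001eb167720, with a Barwin domain, had 11.35, 6.71 and 8.57 FPKM in nf-ya1 at R2h and 1.11, 0.23 and 2.92 FPKM in nf-ya1 at 0 h, against 1.97, 2.19 and 1.84 FPKM in W22 at R2h and 38.81, 43.86 and 10.08 FPKM in W22 at 0 h. The genotypes changed in opposite directions, and the interaction was 5.34 (SE 0.72, adjusted p = 0.00063). Zm00001eb013990, of the Bet v I/major latex protein family, had an interaction of 3.86 (SE 0.65, adjusted p = 0.0019), with 71.88, 86.99 and 19.26 FPKM in W22 at 0 h and 8.44 FPKM or less in the other 9 libraries.

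Genes on in nf-ya1 at R2h included Zm00001eb105250. It had 246.02, 172.25 and 217.88 FPKM in nf-ya1 at R2h and 3.71, 0 and 0 FPKM in nf-ya1 at 0 h, against 3.37, 1.78 and 2.5 FPKM in W22 at R2h and 5.24, 54.59 and 2.07 FPKM in W22 at 0 h. Its interaction was 8.52 (SE 1.28, adjusted p = 0.0011). Zm00001eb434910 and Zm00001eb439980 held identical values in every library, so their reads may be shared: 138.39, 127.82 and 128.92 FPKM in nf-ya1 at R2h, and 0 in the other 9 of these libraries except W22 0 h replicate 2 with 49.83 FPKM (adjusted p = 0.0029). That W22 library was also the highest of its group for Zm00001eb105250. At 1 h of heat Zm00001eb105250 had 351.08, 177.7 and 1.76 FPKM in nf-ya1. Zm00001eb434910 and Zm00001eb439980 each had 193.76, 58.4 and 0 FPKM there. W22 was listed at 0 for these genes at 1 h. In all, 65 tested genes shared their 12 values with another gene, and 4 of them were called.

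Zm00001eb174420, with a 2Fe-2S domain as in ferredoxins, which carry electrons, had 966.25, 865.59 and 832.25 FPKM in nf-ya1 at R2h and 106.72, 53.42 and 444.45 FPKM in nf-ya1 at 0 h, against 93.65, 128.08 and 143.78 FPKM in W22 at R2h and 254.92, 324.39 and 219.64 FPKM in W22 at 0 h. The genotypes overlapped at 0 h and were apart at R2h. The interaction of 3.81 (SE 0.80, adjusted p = 0.0058) lost the call in 13 of 26 alternatives, quantile normalization among them.

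Genes that crossed over upward included Zm00001eb087960, with an agglutinin domain as in sugar-binding lectins. It had 255.47, 471.82 and 383.46 FPKM in nf-ya1 at R2h and 36.06, 29.79 and 48.74 FPKM in nf-ya1 at 0 h, against 102.68, 160.44 and 147.2 FPKM in W22 at R2h and 226.71, 226.58 and 175.02 FPKM in W22 at 0 h. The genotypes did not overlap at either time, and the interaction was 3.85 (SE 0.36, adjusted p = 7.3e-05). Zm00001eb245680 had 100.57, 96.09 and 96.03 FPKM in nf-ya1 at R2h and 1.57, 1.31 and 6 FPKM in nf-ya1 at 0 h, against 37.97, 22.14 and 34.49 FPKM in W22 at R2h and 29.08, 37.24 and 20.67 FPKM in W22 at 0 h, with an interaction of 4.71 (SE 0.53, adjusted p = 0.0002). Zm00001eb277050 had an interaction of 4.17 (SE 0.49, adjusted p = 0.00026).

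The lower calls without annotation were led by genes on in unheated nf-ya1. Zm00001eb056760 had 0.72, 0.16 and 0.53 FPKM in nf-ya1 at R2h and 304.59, 254.04 and 94.08 FPKM in nf-ya1 at 0 h, against 0.51, 0.37 and 0.24 FPKM in W22 at R2h and 1.08, 0.83 and 0.32 FPKM in W22 at 0 h. Its interaction of −6.75 (SE 0.52, adjusted p = 2.6e-05) was the most negative of all tested genes. Zm00001eb206730 with −6.61 (SE 0.75) and Zm00001eb341630 with −6.27 (SE 0.40) had the same pattern, with 45.44 to 283.48 and 132.47 to 339.21 FPKM in nf-ya1 at 0 h and at most 0.66 and 1.33 FPKM in the other 9 libraries.

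A smaller set was lost in nf-ya1 at R2h. Zm00001eb170160 had 0.27, 0.36 and 0.52 FPKM in nf-ya1 at R2h and 106.99, 99.5 and 43.92 FPKM in nf-ya1 at 0 h, against 98.12, 88.38 and 93.91 FPKM in W22 at R2h and 85.5, 61.67 and 104.68 FPKM in W22 at 0 h. The other 3 groups overlapped, and the interaction was −6.02 (SE 0.42, adjusted p = 1.5e-05). Zm00001eb174400 had 0.14, 0.23 and 0.21 FPKM in nf-ya1 at R2h and 56.72, 62.93 and 36.14 FPKM in nf-ya1 at 0 h, against 43.48, 47.43 and 45 FPKM in W22 at R2h and 38.9, 30.43 and 46.91 FPKM in W22 at 0 h, with an interaction of −5.67 (SE 0.28, adjusted p = 2.5e-06). At 1 h of heat Zm00001eb170160 had 19.08, 7.11 and 0.19 FPKM in nf-ya1 and 29.62, 36.62 and 35.08 FPKM in W22. The nf-ya1 libraries thus disagreed, with replicate 3 as low as at R2h. Zm00001eb174400 stood at 5.12 to 5.61 FPKM in nf-ya1 and 13.48 to 15.3 FPKM in W22 at 1 h of heat.

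Zm00001eb317320 was listed at 0 in nf-ya1 at R2h and in W22 at 0 h, had 0, 0 and 9.8 FPKM in nf-ya1 at 0 h and 16.33, 55.84 and 10.79 FPKM in W22 at R2h (adjusted p = 0.0051), and lost its call in 11 of 26 alternatives. Crossing over downward, Zm00001eb168570 had 55.89, 36.8 and 43.3 FPKM in nf-ya1 at R2h and 372.15, 603.22 and 327.39 FPKM in nf-ya1 at 0 h, against 75.88, 133.72 and 121.38 FPKM in W22 at R2h and 60.2, 55.99 and 43.41 FPKM in W22 at 0 h. Its interaction was −4.21 (SE 0.38, adjusted p = 6.1e-05). Zm00001eb300240, a carotenoid oxygenase of the family that cleaves carotenoids, had 0.07, 0.59 and 0.39 FPKM in nf-ya1 at R2h and 22.39, 10.19 and 12.53 FPKM in nf-ya1 at 0 h, against 2.4, 12.2 and 9.11 FPKM in W22 at R2h and 3.62, 4.41 and 1.37 FPKM in W22 at 0 h, with an interaction of −4.50 (SE 0.69, adjusted p = 0.0012).

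Zm00001eb125120 belongs to the CALMODULIN-BINDING PROTEIN60 family, known in Arabidopsis for immune regulators, of which 2 of 10 genes were called lower and 0 higher by limma, with 4 and 2 at an unadjusted p under 0.05. It had 0.62, 1.02 and 1.16 FPKM in nf-ya1 at R2h and 13.26, 26.09 and 12.79 FPKM in nf-ya1 at 0 h, against 3.27, 3.14 and 3.6 FPKM in W22 at R2h and 2.81, 3.2 and 2 FPKM in W22 at 0 h. The interaction was −3.44 (SE 0.35, adjusted p = 0.00011). Genes with a Casparian strip membrane protein domain, named for a structure of the root endodermis, had 2 of 19 called lower and 0 higher by limma. The share called lower was 10.5%, against 15.4% of annotated genes. At an unadjusted p under 0.05 there were 8 lower and 0 higher. The domain name alone does not show a cell type. These genes summed to 296 to 317 FPKM in nf-ya1 at R2h and 292 to 388 FPKM in nf-ya1 at 0 h, against 419 to 429 FPKM in W22 at R2h and 296 to 395 FPKM in W22 at 0 h. One of them, Zm00001eb389430, had 4.97, 6.29 and 6.07 FPKM in nf-ya1 at R2h and 36.1, 44.32 and 80.91 FPKM in nf-ya1 at 0 h, against 2.43 FPKM or less in W22 (interaction −3.44, SE 0.40). The part of other cell types in these results was not tested.

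The study tested 6 promoters against ZmNF-YA1, and of these genes only NIP2c was called in the interaction. NIP2c (Zm00001eb372380), an aquaporin of the NIP group, had 14.33, 18.72 and 16.15 FPKM in nf-ya1 at R2h and 45, 82.96 and 79.75 FPKM in nf-ya1 at 0 h, against 18.2, 28.31 and 26.26 FPKM in W22 at R2h and 24.97, 26.62 and 19.4 FPKM in W22 at 0 h. Unheated nf-ya1 was above the other 9 libraries, and the interaction was −1.99 (SE 0.34, adjusted p = 0.0021). JIH5 (Zm00001eb211100), a jasmonoyl-isoleucine hydrolase gene, had −1.13 (SE 0.29, adjusted p = 0.015), just outside the threshold.

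The other 4 were not called. ASN3 (Zm00001eb013430), an asparagine synthetase gene, had 190.35, 65.58 and 118.59 FPKM in nf-ya1 at R2h and 1.6, 0.84 and 0.28 FPKM in nf-ya1 at 0 h, against 86.57, 275.76 and 224.11 FPKM in W22 at R2h and 17.76, 20.19 and 6.8 FPKM in W22 at 0 h. It was higher at R2h in both genotypes, lower in nf-ya1 than in W22 at 0 h, and its interaction was 2.38 (SE 0.75, adjusted p = 0.033). HUP26 (Zm00001eb406490) had 213.95, 120.99 and 143.1 FPKM in nf-ya1 at R2h and 15.3, 11.7 and 33.03 FPKM in nf-ya1 at 0 h, against 123.75, 387.03 and 358.96 FPKM in W22 at R2h and 142.17, 145.62 and 101.66 FPKM in W22 at 0 h, with an interaction of 2.02 (SE 0.64, adjusted p = 0.034). bZIP100 (Zm00001eb373300) had 1.04 (SE 0.29, adjusted p = 0.02) and GRF1 (Zm00001eb080570) had 0.03 (SE 0.24, adjusted p = 0.94).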

How the data were processed

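Leaf RNA of W22 and nf-ya1 was sequenced by the authors on the BGISEQ-500 platform. Clean reads were aligned to the maize B73 V5 genome, and the authors deposited 1 table of FPKM per gene and library, rounded to 2 decimals. The quantification program is not given in the sources used here. Read counts per gene were not used here, so precision comes from the spread between the 3 libraries of a group. The study's methods call them biological replicates. For its qRT-PCR samples they give R2h as following 10 h of heat, which is not stated for these libraries.

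Groups followed the sample titles. Genes with 1 FPKM or more in 3 or more of the 12 libraries were analysed on log2(FPKM + 1), which understates changes of low genes. In R 4.3.3 with limma 3.58.1, 1 mean per group was fitted, with trended empirical Bayes moderation. The interaction and 4 simple contrasts were tested two-sided with Benjamini-Hochberg adjustment over 21786 genes, with calls made at adjusted p up to 0.01 and a log2 size from 1. The smallest exact permutation p with 3 against 3 libraries is 0.1, so the p-values depend on the variance model. The fit was tested on simulated data. Each simulated gene had the same normal spread in every group, so that test does not cover the unequal spread of these groups.

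None of the 33388 gene set IDs of the table matched the RefSeq table given, so no coordinates or sequences were taken. Domain names came from a partial copy of the study's annotated gene list (1996 genes). No fold change or p-value of the study was used. The comparison at 1 h, its leave-one-out fits and the list counts under alternatives were added after the data had been seen. Members and lists were chosen with earlier results of these data known.

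Named genes were ZmNF-YA1 and the 6 genes of the study's promoter assay, called genes with the largest interaction by class (mean of at least 10 FPKM in the highest group and no overlap between genotypes), the largest annotated ones, and up to 4 called members per list. Where a group was listed at 0, no fold was given. Alternatives were pseudocounts of 0.1 and 0.01, no filter, a mean from 5 FPKM up, median-ratio and quantile scaling, a fit of all 18 libraries, a replicate block, array weights per group, robust or untrended moderation, an adjusted p of 0.05, no fold threshold, the treat test, and leaving out each of 12 libraries.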

Additional observations from a re-analysis of the deposited data

Results flagged for a closer look

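Each gene below had R2h minus 0 h differences that differed between nf-ya1 and W22 by the limma interaction test at the call rule, and the values are interactions on log2(FPKM + 1). No explanation was tested.

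Among genes without annotation, the interaction was higher for Zm00001eb105250 (8.52), Zm00001eb272090 (6.30), Zm00001eb419390 (5.95), Zm00001eb245680 (4.71) and Zm00001eb277050 (4.17). It was lower for Zm00001eb056760 (−6.75), Zm00001eb206730 (−6.61), Zm00001eb341630 (−6.27), Zm00001eb170160 (−6.02), Zm00001eb174400 (−5.67) and Zm00001eb168570 (−4.21).

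Chaperone genes with a higher interaction were Zm00001eb364900 (5.00), Zm00001eb397940 (4.82), Zm00001eb011930 (3.75), Zm00001eb034050 (3.53) and Zm00001eb393250 (1.59). Those with a lower one were Zm00001eb026690 (−3.39), Zm00001eb198560 (−2.01), Zm00001eb286730 (−1.86), Zm00001eb268910 (−1.73) and Zm00001eb218560 (−1.46).

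Regulators with a lower interaction were Zm00001eb413930 (−5.50), Zm00001eb318900 (−5.20), Zm00001eb318910 (−5.04), Zm00001eb048780 (−4.21), Zm00001eb301590 (−4.02), Zm00001eb125120 (−3.44), Zm00001eb224680 (−2.16) and Zm00001eb066640 (−1.65). Those with a higher one were Zm00001eb170920 (3.15), Zm00001eb189840 (2.30), Zm00001eb031210 (1.68) and Zm00001eb389660 (1.49).

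Cell wall and phenylpropanoid genes, with a lower interaction, were Zm00001eb046440 (−4.28), Zm00001eb153340 (−4.28), Zm00001eb099710 (−4.07), Zm00001eb379070 (−3.85), Zm00001eb247650 (−3.11), Zm00001eb077230 (−2.82), Zm00001eb198030 (−1.46) and Zm00001eb373710 (−1.33).

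Transport, light and other genes were Zm00001eb161250 (−5.84), Zm00001eb161410 (−4.60), Zm00001eb300240 (−4.50), Zm00001eb389430 (−3.44), Zm00001eb349050 (−2.44), NIP2c (Zm00001eb372380, −1.99) and Zm00001eb161390 (−1.74) on the lower side, and Zm00001eb167720 (5.34), Zm00001eb013990 (3.86), Zm00001eb087960 (3.85), Zm00001eb174420 (3.81), Zm00001eb264210 (2.80) and Zm00001eb071870 (1.49) on the higher side.

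For genes listed at 0 in a whole group the adjusted p of the interaction stands in place of a size: 0.0011 for Zm00001eb381070, 0.0029 for Zm00001eb434910 and Zm00001eb439980, 0.0051 for Zm00001eb317320, 0.00017 for Zm00001eb157760, 0.00057 for Zm00001eb038070 and 0.0025 for Zm00001eb432850.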

How the results depend on the processing

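The main counts were 610 genes called higher and 1969 lower. They became 1073 and 1171 with median-ratio scaling, 947 and 1006 with quantile normalization, and 56 and 206 with the treat test. At an adjusted p of 0.05 the higher calls became 1036, and with a mean FPKM of at least 5 the lower calls became 1128. Leaving out 1 library gave 372 to 737 higher and 1115 to 2018 lower calls. The counts moved by 1.5 times or less with the other alternatives, and 0 of the 2579 called genes were called in the opposite direction by limma under any alternative run. Same-numbered libraries did not deviate together (18 pairs, correlations of −0.11 to 0.14, 1 over 0.1), so numbers were not taken as pairs, and with the replicate block the counts were 515 and 1605. The median interaction of −0.28 became −0.13 without a filter, 0.00 with median-ratio scaling and 0.01 with quantile normalization. Of the 67 named genes, 26 were on the same side of the threshold in all alternatives run, and 37 lost the call in at least 1, the cause of which was not tested. Read depth per gene is not known from FPKM, so values near 0 carry an unknown counting error.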
